A study of Mus musculus with 4 samples.

Results

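Respiratory complex I, the NADH:ubiquinone oxidoreductase, opens the mitochondrial electron transport chain, and its nuclear genes were followed here in RNA that co-precipitated with the kinesin KIF5C from mouse hippocampus. The genes were those of the deposited count table whose symbol joins Nduf to a subunit letter or to the letters of the assembly factors (af) and a number, which gave 44 of 37411 genes. Of these, 37 carry subunit symbols and 7 are assembly factors. All 44 passed the low-count filter.

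Complex I has a matrix arm, in which electrons pass from NADH over a flavin and a chain of iron-sulfur clusters to ubiquinone, and a membrane arm that pumps protons. The redox work is done by core subunits that bacteria share, and accessory subunits surround them. Assembly factors help to build or modify the complex but are not part of the finished enzyme. In neurons much of the complex is needed far from the cell body, and kinesin-1 motors such as KIF5C carry mitochondria and RNA-containing particles along microtubules.

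The comparison used 4 libraries, 2 from precipitates of a kinesin antibody (KIF5C libraries) and 2 from precipitates of a mouse IgG control antibody (IgG libraries). All came from hippocampi of mice aged 7 to 9 weeks, with 2 mice per co-immunoprecipitation and with several co-immunoprecipitations pooled into each antibody's 2 samples. No strain or genotype is given in the sources used here, and nothing there states that an antibody's 2 libraries are from different animals. The p-values therefore rest on a spread between libraries that may be technical. No library of input RNA was analysed here, so "higher" means a larger share of the KIF5C than of the IgG precipitate.

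The libraries held 15172432 (KIF5C 1), 14623843 (KIF5C 2), 12543510 (IgG 1) and 11059266 (IgG 2) read counts. The mitochondrial 16S rRNA took 11.3% and 31.9% of counts in KIF5C libraries, against 7.36% and 32.2% in IgG libraries, so that replicate numbers differed more than antibodies. As a check of the tissue, the summed level of 6 neuron markers was 3041 and 3110 TMM-scaled CPM (read counts scaled to a common library size) in KIF5C libraries and 2328 and 2242 CPM in IgG libraries. Without correction for GC content and length, all 6 neuron markers had a positive fold change, and none passed the test. Sums for 5 markers each of astrocytes (923 and 807 CPM in KIF5C, 967 and 730 CPM in IgG), oligodendrocytes (1425 and 1563, against 1767 and 1781), microglia (170 and 162, against 184 and 137) and endothelium (67.4 and 65.0, against 74.4 and 65.9) were also present. Of these other markers, only the oligodendrocyte gene Mog passed, as lower. In its list Mobp (log2 fold change 0.20) and Cldn11 (0.22) were positive. Of 5 choroid plexus markers only the transthyretin gene Ttr passed, at 136 and 99.5 CPM in KIF5C against 400 and 213 CPM in IgG libraries. In that list Kl (0.30) and Enpp2 (0.26) were positive. In a fit corrected for GC content and transcript length, Ttr missed the threshold (adjusted p = 0.0591). There the neuron marker Snap25 passed as higher (log2 fold change 1.145, adjusted p = 0.014). Slc17a7 was at -0.003 in that fit, and the neuron markers other than Snap25 did not pass. Because these are shares of precipitated RNA, cell number, RNA per cell and co-precipitation cannot be told apart. The part of these markers in the complex I results was not tested.

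Complex I mRNAs did not move as a block. Transcripts of 4 members were higher in the KIF5C precipitate, namely Ndufb7, Ndufs6, Ndufa5 and Ndufaf7, and those of 4 were lower, namely Ndufb4, Ndufb11, Ndufa12 and Ndufb5. The other 36 did not pass the test, which was edgeR's quasi-likelihood test with an adjusted p under 0.05 over all 14357 genes tested. Among all genes tested, 3.33% were called higher and 0.745% lower, against 9.09% of the members in each direction. Both KIF5C libraries lay above both IgG libraries in 13 members (29.5%, against 26.3% of all genes) and below both in 21 members (47.7%, against 26.2% of all genes). The median log2 fold change of the 44 was -0.18, against -0.03 over all genes, and the members ranged from -1.14 to 1.54.

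**Figure D1:**
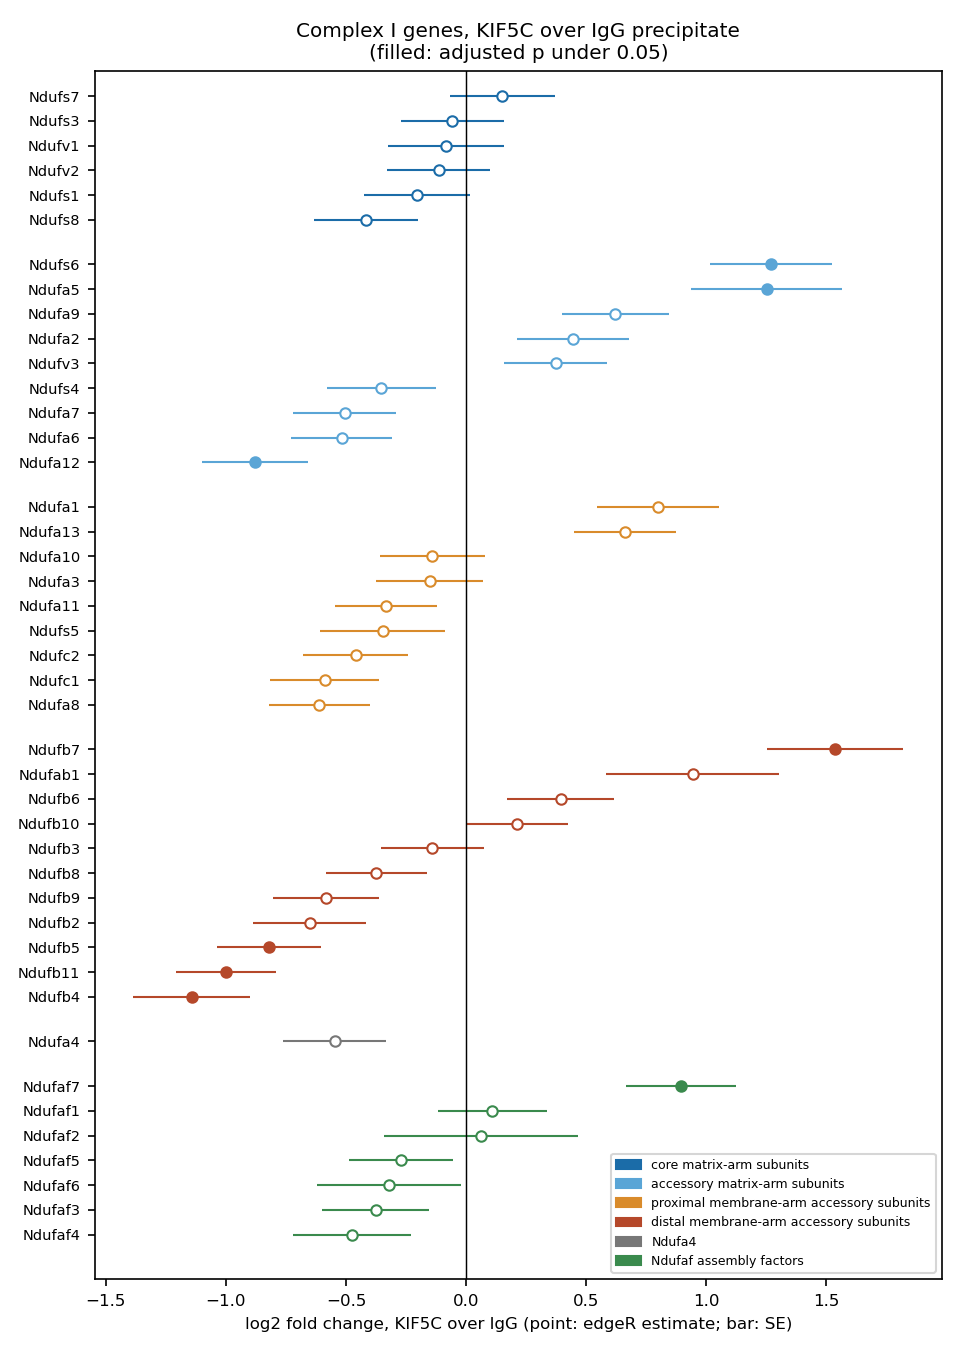
Log2 fold change (KIF5C over IgG, x axis) of 43 of the 44 complex I genes (y axis), grouped by place in the complex. Points are edgeR estimates, bars are standard errors and filled points have an adjusted p under 0.05. Called members lie on both sides of 0, from -1.14 (Ndufb4) to 1.54 (Ndufb7), while the 6 core subunits shown lie between -0.42 and 0.15.

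With library totals in place of TMM scaling, 0 members were called in either direction (0.00697% of all genes higher and 0.0279% lower), and the median of all genes moved by 0.14 on the log2 scale. With the same 4 libraries corrected for GC content and transcript length, 8 members were higher (2.78% of all genes) and 3 lower (0.892% of all genes).

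The 2 strongest rises and the deepest fall were in short mRNAs, and the first 150 coding bases of the highest and the lowest member are shown because the whole range of the members lies between them. Both come from GENCODE transcripts on GRCm38, with the start codon in capitals. The stretch shown is 64.0% G or C in Ndufb7 (chromosome 8) and 60.7% in Ndufb4 (chromosome 16).
Ndufb7: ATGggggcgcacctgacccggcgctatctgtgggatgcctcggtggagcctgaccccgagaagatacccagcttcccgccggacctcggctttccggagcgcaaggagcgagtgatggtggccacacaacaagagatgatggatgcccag
Ndufb4: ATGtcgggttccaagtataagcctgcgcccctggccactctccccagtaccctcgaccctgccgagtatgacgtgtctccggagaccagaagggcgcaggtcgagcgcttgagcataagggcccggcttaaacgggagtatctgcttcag

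The core subunits of the matrix arm carry the flavin and the iron-sulfur clusters or form the ubiquinone site. None of the 7 passed the test, and their median log2 fold change was -0.08. Ndufs8, an iron-sulfur subunit, had the smallest p of them, at 48.3 and 50.8 CPM in KIF5C libraries against 74.6 and 57.5 CPM in IgG libraries. Its libraries did not overlap, but the log2 fold change of -0.42 (adjusted p = 0.278, SE 0.22) missed the threshold. Ndufs1, the largest iron-sulfur subunit, had 128 and 124 CPM in KIF5C libraries and 156 and 135 CPM in IgG libraries, which is a log2 fold change of -0.20 (adjusted p = 0.632, SE 0.22). Ndufv1, which holds the flavin and the NADH site, was at 134 and 143 CPM in KIF5C libraries, inside the 176 and 116 CPM of the IgG libraries. Ndufs3, Ndufs7 and Ndufv2 had log2 fold changes from -0.11 to 0.15.

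The accessory subunits of the matrix arm went both ways. Of 9, 2 rose, 1 fell and 6 did not pass, and their median log2 fold change was 0.37. Over all genes tested, 3.33% were called higher and 0.745% lower. Ndufs6, a zinc-binding subunit that sits near the NADH-oxidising end (chromosome 13, 73319838 to 73328542), had 16.5 and 18.2 CPM in KIF5C libraries and 6.08 and 8.52 CPM in IgG libraries. Both KIF5C libraries lay above both IgG libraries, at 2.41-fold or a log2 fold change of 1.27 (adjusted p = 0.0134, SE 0.25). The call held in all 4 fits that left out 1 library, with values from 1.02 to 1.51.

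A processed pseudogene on chromosome 7, Ndufs6b, matches the Ndufs6 transcript at 96.6% over 348 bases. The deposited counts have no row under that symbol, so whether its reads were counted as Ndufs6 is not known. The first 150 coding bases of Ndufs6 are shown with the matching stretch of the pseudogene, since reads from here can be told apart by only 8 bases, which are in capitals.
Ndufs6: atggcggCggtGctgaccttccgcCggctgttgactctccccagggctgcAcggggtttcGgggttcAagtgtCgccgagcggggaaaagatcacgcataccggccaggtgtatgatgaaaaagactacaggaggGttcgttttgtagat
Ndufs6b: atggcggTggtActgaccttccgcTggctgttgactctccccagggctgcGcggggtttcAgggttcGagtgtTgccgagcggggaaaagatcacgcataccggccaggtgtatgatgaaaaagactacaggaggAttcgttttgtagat

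Ndufa5, an accessory subunit beside the ubiquinone-reducing module (chromosome 6, 24518666 to 24528013), had 34.4 and 33.3 CPM in KIF5C libraries and 8.26 and 21.0 CPM in IgG libraries. The KIF5C libraries were close together and the IgG libraries far apart, yet the groups did not overlap. Its log2 fold change was 1.25 (adjusted p = 0.0364, SE 0.31). It was 0.69 (adjusted p = 0.0659) without IgG replicate 1, the library with the lowest level, and 2.04 (adjusted p = 0.00694) without IgG replicate 2.

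Ndufa12 fell in the same arm. This subunit of the NADH-oxidising module (chromosome 10, 94198720 to 94221443) takes the place that the related assembly factor Ndufaf2 holds during assembly. It had 42.8 and 52.2 CPM in KIF5C libraries against 77.8 and 96.9 CPM in IgG libraries, with no overlap. The log2 fold change was -0.88 (adjusted p = 0.0367, SE 0.22). The adjusted p was 0.399 without KIF5C replicate 1, 0.0937 without KIF5C replicate 2 and 0.12 without IgG replicate 2, with values of -0.74, -1.02 and -0.71. Ndufaf2 itself was at 2.53 and 2.64 CPM in KIF5C libraries and 1.86 and 3.31 CPM in IgG libraries, which is a log2 fold change of 0.06 (adjusted p = 0.95, SE 0.40). The difference between the pair was not tested.

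Among accessory matrix-arm genes that missed the threshold, Ndufa9, which stabilises the junction of the arms, had 83.7 and 91.9 CPM in KIF5C libraries and 65.5 and 48.3 CPM in IgG libraries, which is a log2 fold change of 0.62 (adjusted p = 0.123, SE 0.22). Ndufa6, whose protein binds the mitochondrial acyl carrier protein, had 33.5 and 36.4 CPM in KIF5C libraries against 52.8 and 47.2 CPM in IgG libraries, which is a log2 fold change of -0.52 (adjusted p = 0.164, SE 0.21). In neither gene did the KIF5C and IgG libraries overlap, and Ndufa9 passed without IgG replicate 1 (0.86, adjusted p = 0.0255). Ndufa2 (0.45), Ndufv3 (0.37), Ndufs4 (-0.35) and Ndufa7 (-0.51) made up the rest.

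**Figure D2:**
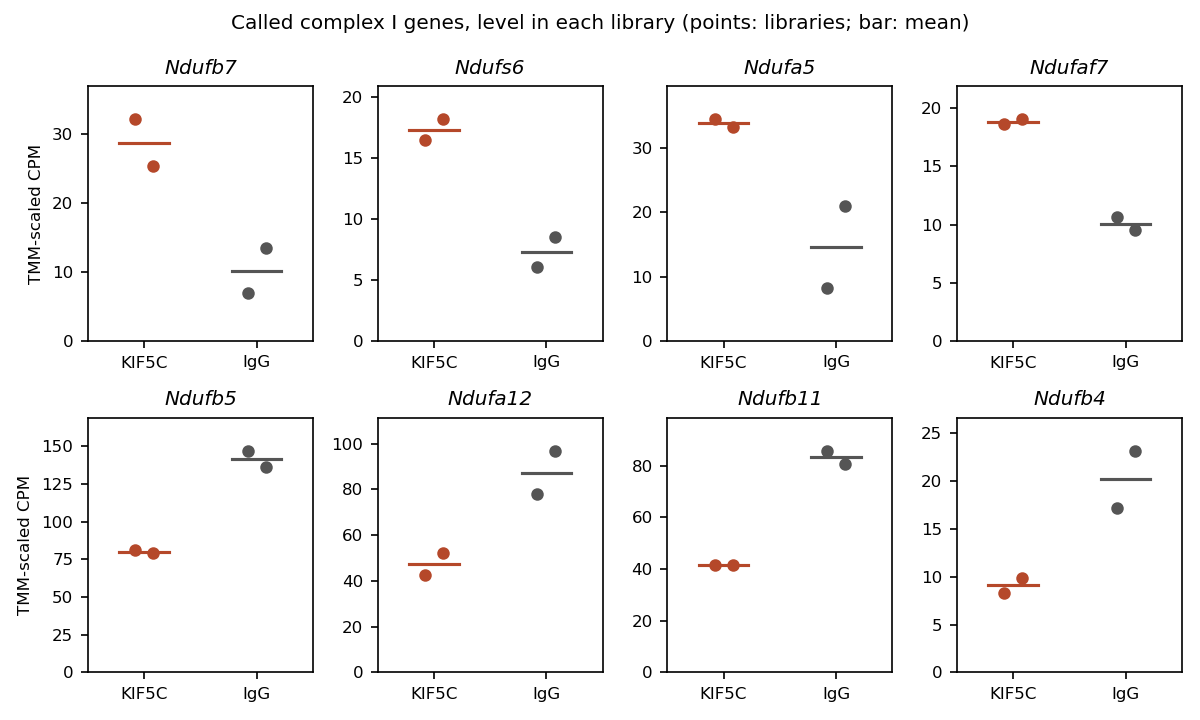
Level in TMM-scaled CPM (y axis, from 0) of the 8 called complex I genes in the 2 KIF5C and the 2 IgG libraries. Points are libraries, with replicate 1 to the left of replicate 2 within a group, and bars are group means. No KIF5C point lies within the range of the IgG points, and the IgG points of Ndufa5 stand at 8.26 and 21.0 CPM.

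In the proximal membrane arm, next to the matrix arm, 0 of 9 accessory subunits passed, and 2 had positive and 7 negative fold changes (median log2 fold change -0.33). The 2 positive ones had the smallest p-values. Ndufa1, a small subunit needed to assemble the membrane arm, had 14.4 and 16.4 CPM in KIF5C libraries and 7.30 and 10.7 CPM in IgG libraries, which is a log2 fold change of 0.80 (adjusted p = 0.0828, SE 0.25). Ndufa13, also known as GRIM-19 and studied as a cell death regulator, had 90.7 and 96.5 CPM in KIF5C libraries and 55.9 and 62.4 CPM in IgG libraries, which is a log2 fold change of 0.66 (adjusted p = 0.0847, SE 0.21). With the correction for GC content and length Ndufa1 passed (1.31, adjusted p = 0.00625). The remaining 7 genes, Ndufa3, Ndufa8, Ndufa10, Ndufa11, Ndufc1, Ndufc2 and Ndufs5, lay between -0.61 (Ndufa8) and -0.14 (Ndufa10). Both KIF5C libraries lay below both IgG libraries in 5 of the 9 genes (55.6%), against 26.2% of all genes tested. That share was 63.6% in distal membrane-arm subunits and 60% in nuclear genes of complexes II to V. It was 33.3% in accessory and 28.6% in core matrix-arm subunits.

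The distal membrane arm held the widest range. Of its 11 accessory subunits, 1 rose, 3 fell and 7 did not pass, with a median log2 fold change of -0.37. The shares called over all genes tested were 3.33% higher and 0.745% lower. Ndufb7, a subunit on the intermembrane-space face (chromosome 8, 83566671 to 83571626), was the highest member. It had 32.2 and 25.3 CPM in KIF5C libraries against 6.91 and 13.5 CPM in IgG libraries, with no overlap. The 2.90-fold difference, a log2 fold change of 1.54 (adjusted p = 0.00978, SE 0.28), passed in all 4 fits that left out 1 library, with a lowest value of 1.10 (IgG replicate 1 left out) and a highest of 2.06 (IgG replicate 2 left out).

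Ndufb4, Ndufb11 and Ndufb5, membrane-spanning subunits of the same segment, fell. Ndufb4 (chromosome 16, 37647170 to 37654453) was at 8.31 and 9.87 CPM in KIF5C libraries and at 17.2 and 23.1 CPM in IgG libraries. Its log2 fold change was -1.14 (adjusted p = 0.017, SE 0.24), and it missed the threshold without KIF5C replicate 1 (-1.02, adjusted p = 0.199) or IgG replicate 2 (-0.92, adjusted p = 0.0877). The processed pseudogene Ndufb4c matches 390 bases of its transcript at 100%, so that reads from there cannot be told apart. Ndufb11, encoded on chromosome X (20615326 to 20617619), had 41.6 and 41.7 CPM in KIF5C libraries and 85.8 and 80.8 CPM in IgG libraries, close replicates in both groups. Its log2 fold change of -0.999 (adjusted p = 0.0162, SE 0.21) missed the threshold without KIF5C replicate 1 (-0.996, adjusted p = 0.173) or KIF5C replicate 2 (-0.99, adjusted p = 0.106).

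Ndufb5 (chromosome 3, 32736990 to 32751566) had 81.4 and 79.1 CPM in KIF5C libraries and 147 and 136 CPM in IgG libraries. The log2 fold change was -0.82 (adjusted p = 0.0442, SE 0.22). It missed the threshold without KIF5C replicate 1 (adjusted p = 0.315), KIF5C replicate 2 (0.25) or IgG replicate 2 (0.068), with values of -0.84, -0.79 and -0.87, and in the fit corrected for GC content and length (-0.58, adjusted p = 0.0982). Up to 530 bases of an Ndufb5 exon overlap Mrpl47, a mitochondrial ribosomal protein gene on the opposite strand.

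In the same arm Ndufb2 and Ndufb9, as lower, and Ndufab1, as higher, passed an unadjusted p of 0.05 but not the adjusted one. Ndufb2 was at 13.4 and 12.7 CPM in KIF5C libraries and 17.4 and 23.9 CPM in IgG libraries, which is a log2 fold change of -0.65 (adjusted p = 0.124, SE 0.24). It passed without IgG replicate 1 (-0.87, adjusted p = 0.0242). Ndufb9, which like Ndufa6 binds the acyl carrier protein, was at 113 and 125 CPM in KIF5C libraries and 178 and 178 CPM in IgG libraries, which is a log2 fold change of -0.58 (adjusted p = 0.14, SE 0.22). The acyl carrier protein gene itself, Ndufab1, was at 5.57 and 9.48 CPM in KIF5C libraries and 2.75 and 5.34 CPM in IgG libraries. Its log2 fold change of 0.94 (adjusted p = 0.142, SE 0.36) did not pass. Ndufb3, Ndufb6, Ndufb8 and Ndufb10 lay between -0.37 and 0.39.

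Ndufa4 carries a complex I symbol but is now placed in complex IV, cytochrome c oxidase. It had 76.3 and 80.8 CPM in KIF5C libraries and 116 and 114 CPM in IgG libraries, without overlap, and its log2 fold change of -0.55 (adjusted p = 0.151, SE 0.21) did not pass. Corrected for GC content and length it was at 0.02 (adjusted p = 0.975).

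Of the 7 assembly factors, 1 rose and 6 did not pass, against 3.33% of all genes tested called higher and 0.745% lower. Ndufaf7 (chromosome 17, 78937136 to 78948052), a mitochondrial methyltransferase, had 18.6 and 19.0 CPM in KIF5C libraries against 10.6 and 9.54 CPM in IgG libraries. The replicates lay close together and the groups apart, with a log2 fold change of 0.89 (adjusted p = 0.038, SE 0.23). The adjusted p was 0.244 without KIF5C replicate 1, 0.16 without KIF5C replicate 2 and 0.105 without IgG replicate 2, with values of 0.91, 0.89 and 0.83.

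Ndufaf3 and Ndufaf4 act together on the ubiquinone-reducing module. Ndufaf3 was at 20.9 and 21.6 CPM in KIF5C libraries and 30.7 and 24.2 CPM in IgG libraries, which is a log2 fold change of -0.38 (adjusted p = 0.343, SE 0.22). Ndufaf4 was at 13.7 and 9.41 CPM in KIF5C libraries and 15.4 and 17.0 CPM in IgG libraries, which is a log2 fold change of -0.48 (adjusted p = 0.274, SE 0.24). Ndufaf5, which hydroxylates an arginine of NDUFS7 in human cells, was at 20.5 and 23.5 CPM in KIF5C libraries and 25.4 and 27.7 CPM in IgG libraries (log2 fold change -0.27, SE 0.22, adjusted p = 0.498). These 3 of the 7 assembly factors (42.9%) had both KIF5C libraries below both IgG libraries, against 26.2% of all genes tested. Ndufaf1, which acts on the membrane arm, had a log2 fold change of 0.11 (SE 0.23), with 19.4 and 18.1 CPM in KIF5C libraries and 15.6 and 19.5 CPM in IgG libraries. Ndufaf6 had -0.32 (SE 0.30), with 4.23 and 5.99 CPM in KIF5C libraries and 5.89 and 6.87 CPM in IgG libraries. Ndufaf8, the partner of Ndufaf5, stands in the table under an older symbol, outside the rule, and measured 6.09 and 4.51 CPM in KIF5C libraries and 7.68 and 5.72 CPM in IgG libraries (log2 fold change -0.35, SE 0.29, adjusted p = 0.525).

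Subunits and assembly factors were not separated by these data. The median log2 fold change was -0.15 for the 37 subunits and -0.27 for the 7 assembly factors, a difference of 0.12. Between single libraries the difference was -0.11 for KIF5C 1 over IgG 1, 0.08 for KIF5C 1 over IgG 2, -0.24 for KIF5C 2 over IgG 1 and 0.01 for KIF5C 2 over IgG 2, so that its sign changed with the pairing. It was also negative without KIF5C replicate 1 (-0.11) or IgG replicate 2 (-0.02), but it was 0.06 without KIF5C replicate 2 and 0.11 without IgG replicate 1. The subunits spread more widely, from -1.14 to 1.54, than the assembly factors, from -0.48 to 0.89, with 37 genes against 7. The summed level was 1882 and 1986 CPM in KIF5C libraries against 2228 and 2152 CPM in IgG libraries for the subunits, and 99.9 and 100.3 CPM against 105 and 108 CPM for the assembly factors.

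**Figure D3:**
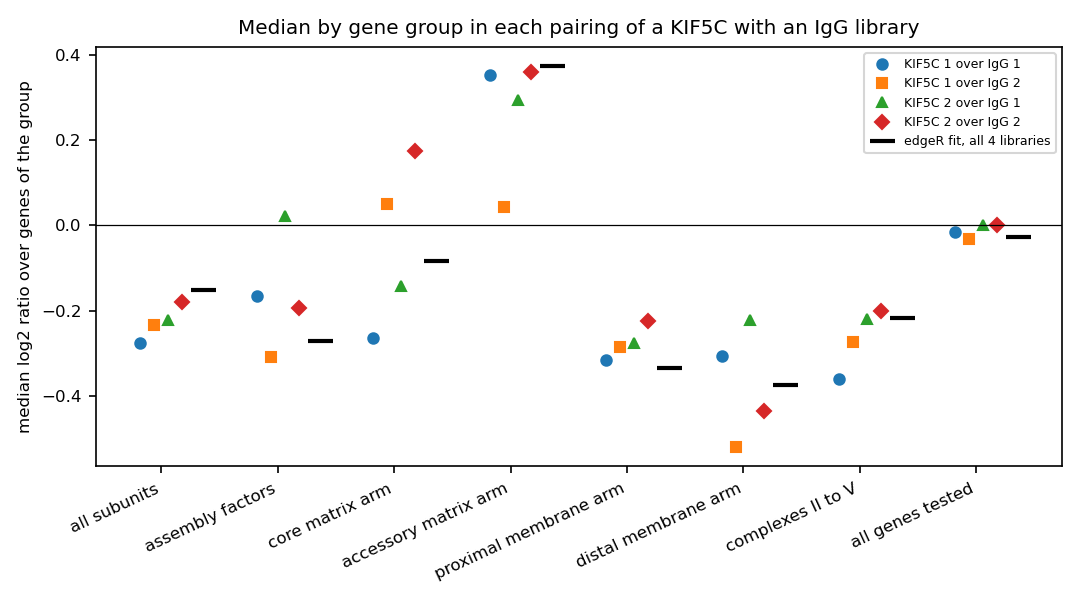
Median log2 ratio over the genes of each group (y axis) in each of the 4 pairings of a KIF5C with an IgG library, with the edgeR median as a black dash. The subunit medians lie between -0.28 and -0.18 and those of the assembly factors between -0.31 and 0.02. Accessory matrix-arm genes are above 0 and both membrane-arm groups below 0 in all 4 pairings.

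The medians of the subunit groups differed in sign. Accessory matrix-arm genes had medians from 0.04 to 0.36 over the 4 pairings, proximal membrane-arm genes from -0.32 to -0.22, and distal membrane-arm genes from -0.52 to -0.22. Core genes had -0.26 and -0.14 against IgG 1 but 0.05 and 0.17 against IgG 2. The groups hold 7 to 11 genes each, and no difference between groups was tested.

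The subunits encoded in the mitochondrion, which form the core of the membrane arm, did not pass the test as fitted without correction. Of 7, mt-Nd3 and mt-Nd4l had at most 1 count in any library and were not tested. The 5 others depended on the IgG library, with a median log2 ratio of 0.46 (KIF5C 1) and 0.62 (KIF5C 2) over IgG 1, but -0.62 and -0.47 over IgG 2. mt-Nd1, for example, was at 392 and 433 CPM in the KIF5C libraries, between the 272 and 601 CPM of the IgG libraries. In the fit corrected for GC content and length, mt-Nd2 (1.25, adjusted p = 0.0088) and mt-Nd4 (0.79, adjusted p = 0.034) passed as higher, against uncorrected log2 fold changes of 0.33 and -0.04. There mt-Nd1 (0.77, adjusted p = 0.0699) and mt-Nd5 (0.48, adjusted p = 0.212) were also positive, against -0.08 and -0.21 uncorrected. By contrast, mt-Nd6 stayed negative, at -0.82 (adjusted p = 0.394), against -2.09 (adjusted p = 0.0681) uncorrected. It had only 24 and 21 counts in KIF5C libraries and 24 and 90 in IgG libraries. Of 10 further assembly factors whose symbols fall outside the rule, 0 passed, and their median log2 fold change was -0.10. Tmem70 was the lowest of them, at 18.3 and 20.1 CPM in KIF5C libraries and 27.7 and 30.4 CPM in IgG libraries, which is a log2 fold change of -0.59 (adjusted p = 0.129, SE 0.22).

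Nuclear genes of complexes II to V, which complete the respiratory chain, also went both ways. Of 40, 3 rose and 4 fell, against 3.33% and 0.745% of all genes. Among the 40, 11 had positive and 29 negative fold changes, and their median log2 fold change was -0.22. The 3 were Cox6a1 (log2 fold change 1.11, SE 0.23), a cytochrome c oxidase subunit, and Sdha (1.04, SE 0.24) and Sdhb (0.94, SE 0.22), the catalytic subunits of complex II. The 4 were Uqcrq (-1.67, SE 0.22), Atp5e (-0.96, SE 0.23), Uqcr10 (-0.85, SE 0.21) and Atp5l (-0.97, SE 0.26). Their adjusted p-values lay between 0.00218 and 0.0471. Atp5e, Uqcr10 and Atp5l did not pass when corrected for GC content and length (adjusted p = 0.113, 0.0985 and 0.211). In that corrected fit Uqcrb passed as higher (0.80, adjusted p = 0.0303), against an uncorrected log2 fold change of 0.10. None of the 7 genes called without correction passed with library totals. Uqcrq alone of the 7 passed with any 1 library left out. Without KIF5C replicate 1 the other 6 missed the threshold (adjusted p from 0.0518 to 0.414), as did Sdhb, Atp5e, Uqcr10 and Atp5l without KIF5C replicate 2, Sdha and Atp5l without IgG replicate 1, and Uqcr10 and Atp5l without IgG replicate 2. Whether complex I differs from these complexes was not tested.

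The order of the members by abundance changed with the precipitate. Per kilobase of transcript, Ndufb9 was the most abundant member in both, with a mean of 169 CPM per kb in KIF5C and 253 CPM per kb in IgG libraries, followed by Ndufa4 at 129 and 188 CPM per kb. Ndufb7 ranked 20th in KIF5C, at 46.1 CPM per kb, and 33rd in IgG, at 16.4 CPM per kb. Ndufa13 ranked 7th in KIF5C (74.8 CPM per kb) and 22nd in IgG (47.3 CPM per kb). Ndufb11 ranked 21st in KIF5C (45.9 CPM per kb) and 6th in IgG (91.7 CPM per kb). These levels rest on 1 annotated transcript per gene, and differences between neighbouring ranks were not tested.

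Complex I mRNAs are short, with a median transcript length of 977 nt (419 to 4371 nt), against 3045 nt over all genes tested. Across all genes tested with an annotated transcript, the log2 fold change rose with GC content (Pearson's r = 0.309, Spearman's rho = 0.326, n = 13943) and with log2 length (r = 0.227, rho = 0.219). Across the 44 members the same relations were weak (r = 0.155, rho = 0.133 for GC content, r = -0.066, rho = -0.0317 for length). These are descriptions across genes that share libraries. GC content overlapped between called members of either direction. Those that rose had 47.1% to 59.7% GC and lengths of 568 to 1749 nt, and those that fell 48.0% to 52.5% GC and lengths of 908 to 1110 nt.

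In the fit corrected for composition and length, the median of the subunits was 0.02 and that of the assembly factors -0.01, against -0.04 over all genes. In that fit Ndufb7 (1.67), Ndufs6 (1.49), Ndufa5 (1.52) and Ndufaf7 (1.05) still passed, and Ndufa1 (1.31), Ndufa9 (0.78), Ndufb6 (0.75) and Ndufa2 (0.74) passed as well. Ndufb4 (-0.98), Ndufb11 (-0.83) and Ndufa12 (-0.74) passed as lower.

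**Figure D4:**
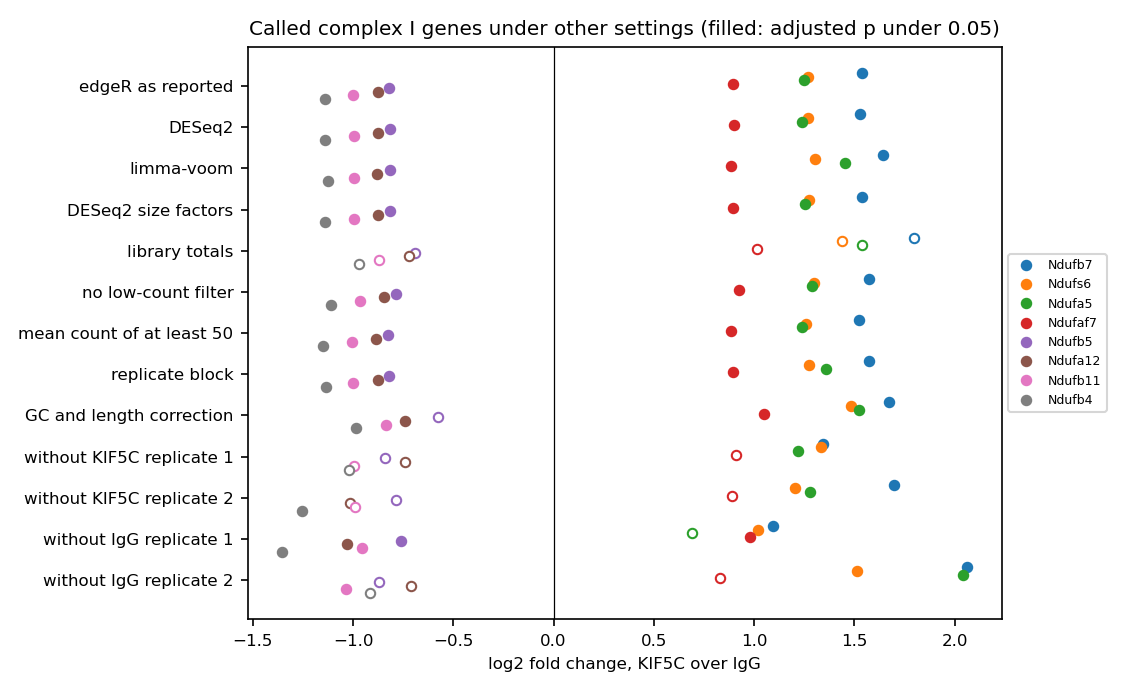
Log2 fold change (KIF5C over IgG, x axis) of the 8 called members under each processing alternative (y axis). Filled points have an adjusted p under 0.05. Every point stays on its own side of 0, and Ndufb7 and Ndufs6 are filled in each fit except that on library totals.

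Counting limits touch several members. Exons of 16 of the 44 overlap a gene on the opposite strand, and no source used here gives the strandedness of the counting. Transcripts of 8 have a processed pseudogene that matches 200 or more bases at 95% or more identity, among them the called genes Ndufs6, Ndufb4, Ndufb11 and Ndufa12. None of these pseudogenes has a row under its symbol in the deposited counts. The lowest counts behind a called member were 67 (Ndufs6, IgG 2) and 75 (Ndufaf7, IgG 2).

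At an adjusted p under 0.05 in the authors' deposited table, 5 members were higher in the KIF5C precipitate and 4 lower. Of all genes with an adjusted p in the authors' deposited table, 5.82% were higher and 1.08% lower at that threshold. Its linear fold column runs KIF5C over IgG and gives, in the authors' deposited table, 2.36 for Ndufb7, 2.06 for Ndufs6, 1.97 for Ndufa5, 1.70 for Ndufaf7 and 1.53 for Ndufa13. For the genes lower in KIF5C, the authors' deposited table gives 0.524 for Ndufb4, 0.54 for Ndufb11, 0.587 for Ndufa12 and 0.602 for Ndufb5. The fold column of the authors' deposited table also holds 0.697 for Ndufb9, which missed that threshold (authors' adjusted p = 0.069). DESeq2 run on the deposited counts called the same 9 genes, 5 higher and 4 lower (5.56% and 1.33% of the 11295 genes to which DESeq2 gave an adjusted p). Ndufa13 is the gene that these add to the edgeR calls.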

How the data were processed

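The authors deposited whole-number read counts per gene, not normalized, for 4 libraries, and a table of their own comparison. Salmon, DESeq and GRCm38 are named in the submitters' processing notes, without versions; annotation and strandedness were not given in any source used here. In the authors' table the log2 fold change runs IgG over KIF5C, and the fold column is a linear ratio of KIF5C over IgG. These directions were read from the values: Ndufb7, higher in the KIF5C libraries, has -1.24 and 2.36 there. The standard error, p-values, adjusted p-values and test statistic (a score) are the authors' own. The mean normalized signal deposited per gene was not used.

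Counts were tested with edgeR 4.0.16 (quasi-likelihood, TMM, filterByExpr with minimum count 10 and minimum total 15, group as the only term) in R 4.3.3. Adjustment was Benjamini-Hochberg over the 14357 genes tested. SE is the size of the log2 fold change divided by the square root of F. Log2 ratios between single libraries used a prior count of 2. Alternatives were DESeq2 1.42.0, limma-voom (limma 3.58.1), other scaling and filters, a replicate block, leaving out each library, and offsets from splines (5 degrees of freedom) on GC content and length, which 13943 of the tested genes had. Transcripts and coordinates come from GENCODE M21 (GRCm38), 1 principal coding transcript per gene. The edgeR step was tested on simulated data.

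Members and lists were chosen with earlier results of these data known. Named were all called members, the 2 others with the smallest p per role group, every assembly factor, and called genes of the other lists (at most 6). Ndufv1, Ndufab1, mt-Nd1, mt-Nd2, mt-Nd4, mt-Nd5, mt-Nd6, Atp5l, Uqcrb, Tmem70 and genes given by value in passing were chosen after their values were seen. Of 136 list entries, 1 had no row. The values of 1 member are not reported here, though group counts and medians include it.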

Additional observations from a re-analysis of the deposited data

How the results depend on the processing

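Count of members called higher was 4 as reported, 0 with library totals, 8 with GC and length correction and 8 with the replicate block. Members called lower numbered 4 as reported and 0 with library totals. Leaving out 1 library leaves 1 antibody with a single library, and the members that passed then changed with the library left out. The share of all genes called in those fits was not computed, so their calls are not read as a result about complex I. The subunit median was -0.0287 with library totals and 0.0168 with GC and length correction, and -0.23 to -0.17 with 1 library left out. For assembly factors it was -0.132, -0.0108 and -0.34 to -0.0824. Their difference was -0.11 to 0.11 with 1 library left out. The cause was not tested. Relative to all genes, whose median shifted by 0.14, library totals left the subunit median at -0.14, against -0.12 as reported.

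The replicate numbers are not stated to pair libraries. Deviations of same-numbered libraries from their group means correlated at 0.142, and the block called 8 members higher and 5 lower, against 8.09% and 3.6% of all genes (3.33% and 0.745% without it). Its added calls were Ndufa1 (adjusted p = 0.0241), Ndufa13 (0.0173), Ndufa9 (0.026) and Ndufab1 as higher and Ndufb9 (0.0335) as lower. With DESeq2, limma-voom, DESeq2's size factors, no filter on low counts, a minimum mean count of 50, an adjusted p threshold of 0.1 or Ndufa4 left out, counts stayed within 1.5 times and medians within the spread of the 4 pairings. With 1 library left out, the lone library was assumed to vary like the other antibody's. Depth limits the low members: Ndufaf2 had 26 to 49 counts per library.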
